A study of Mus musculus with 7 samples.

Results

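The potassium channel genes are the 94 genes of the deposited table whose symbol starts with Kcn, out of 55367 genes in all. They were chosen by symbol alone, and 5 antisense or noncoding entries among the 99 Kcn symbols were left out. They were grouped by prefix into the voltage-gated Kcna to Kcnd genes (Kv1-4, with the Kcnab subunits), the Kcnh, Kcnq, Kcnip, Kcnm/n/t, Kcnj and Kcnk genes. The electrically silent subunits Kcnf, Kcng, Kcns and Kcnv, the Kcne subunits and Kcnrg, which these prefixes do not cover, were kept as groups of their own. RNA-seq libraries labelled CRS (n = 4) were compared with libraries labelled noCRS (n = 3). Both came from C57BL/6J mice labelled P90, and per the labels the RNA was that of medial prefrontal neurons sending axons to the lateral habenula. The labels do not spell out CRS, and the series title speaks of chronic stress and of depression. No transgene, allele or other agent is named for either group, and the sources used here do not give how the neurons were marked and isolated. Nothing in the labels ties a library to its own animal, so the spread that the p-values measure is that between samples and may be technical.

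Potassium channels let potassium ions leave the cell and so set the resting potential, the shape of the action potential and the rate of firing. Pore-forming subunits open with voltage, with calcium or sodium inside the cell, with G proteins or ATP, or with membrane stretch and lipids, and auxiliary subunits change their traffic to the membrane and their gating. In the cortex most are neuronal, while Kcnj10 and Kcnj16 are also known as inward rectifiers of astrocytes and oligodendrocyte lineage cells, which take up potassium released by active neurons.

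Library totals ran from 32346275 to 39740623 counts in CRS and from 28677703 to 39965667 counts in noCRS, and 0.0904 to 0.145% of counts fell on potassium channel genes. Values in CPM (counts scaled to a common library size) were scaled by trimmed mean of M-values (TMM), and levels were compared between genes only as CPM per kilobase of exon (CPM per kb). A count of 3 in 1 library corresponded to 0.0724 to 0.0990 CPM, a floor that covers counting error only. The biological coefficient of variation was 0.919, and genes with at least 1 count ran from 16938 in CRS replicate 2 to 23399 in CRS replicate 4. The labelled cell type was checked against its markers. Summed over 6 excitatory neuron markers, CRS libraries had 325 to 522 CPM, against 18.6 to 30.5 CPM in noCRS libraries. The vesicular glutamate transporter Slc17a7 and the cortical factor Tbr1, defining markers of the labelled cells, were at 0 in 2 of 3 noCRS libraries. Slc17a7 had 6.77 to 13.5 CPM in CRS and was not called (adjusted p = 0.188, edgeR). Of the 6, Neurod6 and Nrgn were called higher in CRS, and Nrgn had 12.1 to 14.7 CPM in noCRS. Camk2a was found in every noCRS library and overlapped, with 11.1 to 25.7 CPM in CRS and 2.83 to 13.5 CPM in noCRS (adjusted p = 0.589, edgeR). The 6 pan-neuronal markers summed to 2786 to 3951 CPM in CRS, against 342 to 428 CPM in noCRS. The CRS sums were mostly Snap25, at 2090 to 3503 CPM. Map2 did not differ, with 111 to 230 CPM in CRS and 167 to 205 CPM in noCRS (adjusted p = 0.945, edgeR), and Tubb3 overlapped. Inhibitory neuron markers (2 of 6 called higher, Gad1 and Sst) summed to 150.2 to 661 CPM in CRS, against 34.6 to 37.5 CPM in noCRS. Of that list Gad2 and Pvalb overlapped between the groups (adjusted p = 0.844 and 0.999, edgeR). The transporter Slc32a1, untested, had 0, 0, 0.132 and 0.104 CPM in CRS and 0 CPM in every noCRS library. The 6 oligodendrocyte markers summed to 25714 to 50553 CPM in CRS, against 31265 to 36150 CPM in noCRS, and exceeded the neuronal sums in every library. In bulk samples, fewer cells of a type and less RNA per cell cannot be told apart.

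Of the 94 genes, 13 had 0 counts in every library and 81 had at least 1 count. Enough counts in enough libraries for testing were found for 59, of which 28 had a 0 in at least 1 library. Genes tested with 0 counts in noCRS, and Kcnk4 with 2 counts there, passed that filter through CRS alone. Counts and medians over tested genes are therefore given as descriptions. Past an adjusted p of 0.05 (quasi-likelihood test of edgeR, adjusted by Benjamini-Hochberg over 17833 genes), 4 potassium channel genes were higher in CRS and 0 were lower. They were Kcnip4, Kcnk4, Kcnj11 and Kcnma1, of which Kcnk4 and Kcnj11 passed the filter through CRS alone. Over all tested genes, 2.07% were called higher and 0.230% lower (2.30% in either direction). At an unadjusted p under 0.05, 10 members were higher and 6 lower, where 9.67% and 3.91% of all tested genes were (13.6% in either direction). DESeq2 called 11 members, 8 higher and 3 lower, where it called 9.14% of genes. The voom method of limma called 5, where it called 3.58% of genes, and the 5 were those 4 plus Kcnn2, which was lower. The CRS and noCRS libraries did not overlap in 12 members, 8 higher and 4 lower, against 10.1% and 6.74% of all tested genes (16.9% in either direction). The median log2 fold change of the 59 was 0.39, with 35 positive (49.2% of all tested genes were) and 24 negative, beside -0.02 over all tested genes. Scaling by total counts alone shifted the median of all genes by -0.16 and left the median of members 0.41 above it. With that scaling alone, 248 genes were called higher and 64 lower (79.5% higher), against 369 and 41 with TMM.

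**Figure D1:**
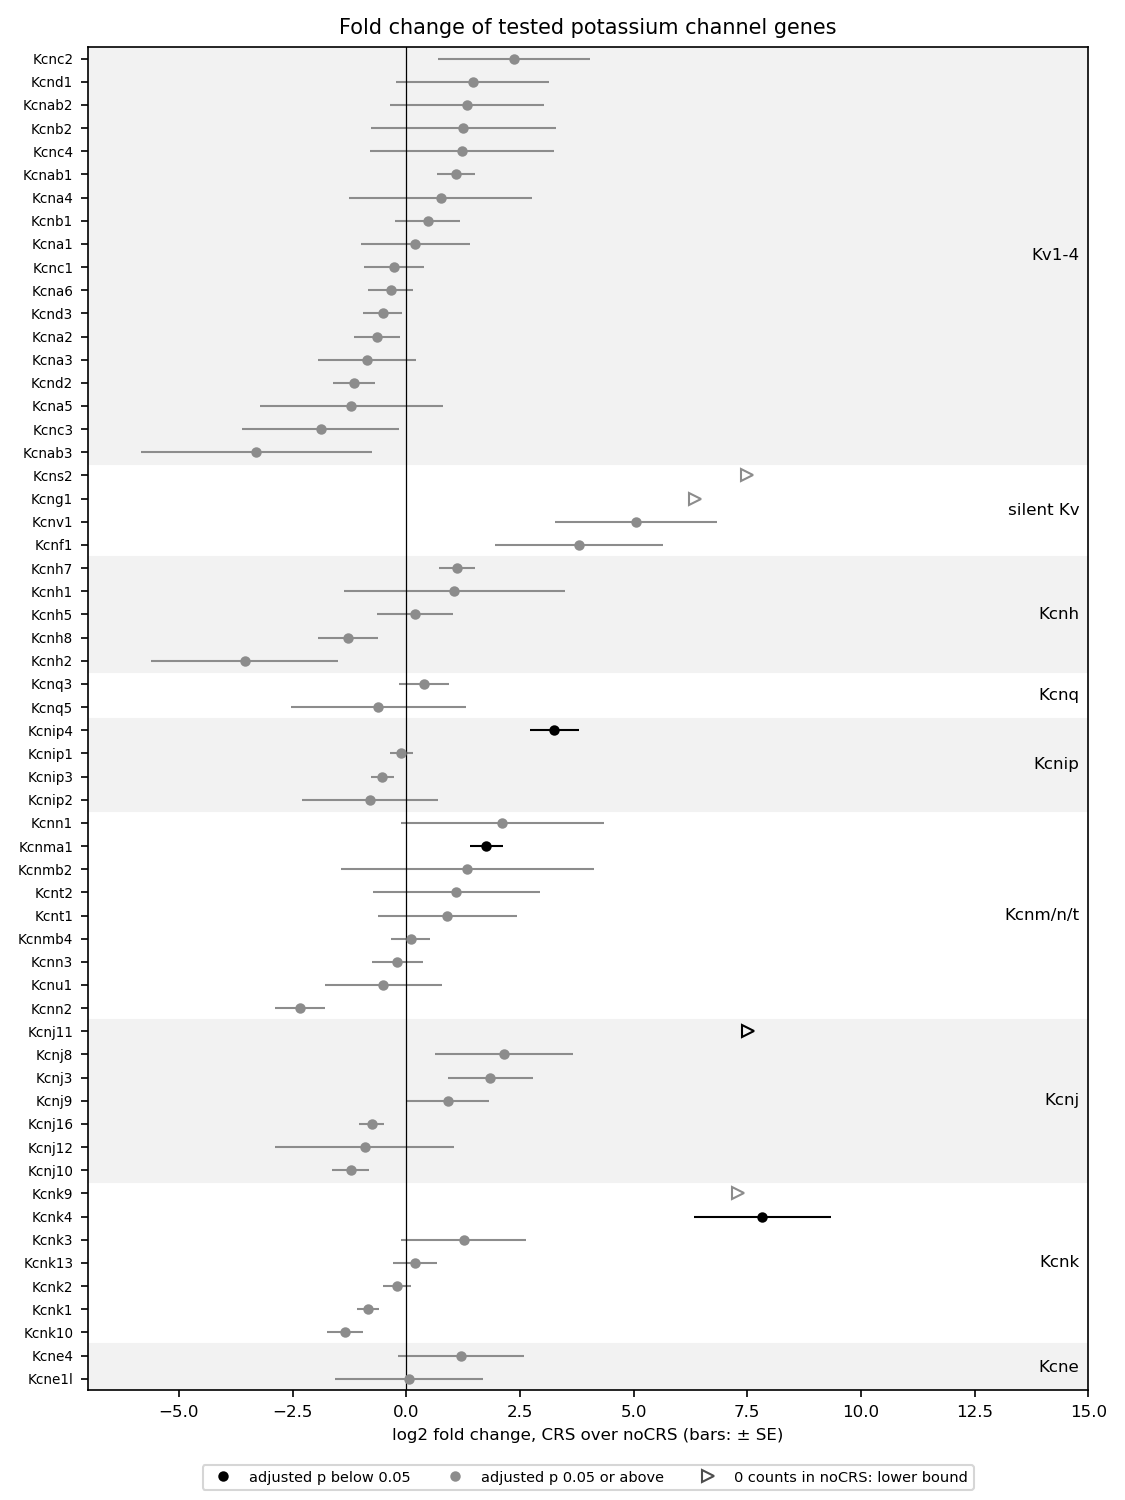
Log2 fold change of CRS over noCRS (horizontal axis) for tested potassium channel genes, grouped by subfamily, with bars for ± 1 standard error of edgeR's fit. Open triangles are lower bounds for the 4 genes with 0 counts in noCRS, and the 4 genes with an adjusted p below 0.05 are black.

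The promoters below belong to the called genes with an entry in RefSeq (GRCm38.p6), which covered 69 of the 94 members and 3 of the 4 called genes. They are shown because these genes were called higher in CRS, and whether they share regulation was not tested. Each is the 250 bases before the start site, read 5′ to 3′ on the gene's strand, all on the minus strand of the build. Capitals mark a match to TGANTCA, where N is any base. This pattern takes in the sites of AP-1, the factor formed by Fos and Jun, but is not limited to them. The stretch marked below has T as its middle base. Kcnip4 has 2 listed starts.
Kcnip4 promoter, chr5:48599683-48599932: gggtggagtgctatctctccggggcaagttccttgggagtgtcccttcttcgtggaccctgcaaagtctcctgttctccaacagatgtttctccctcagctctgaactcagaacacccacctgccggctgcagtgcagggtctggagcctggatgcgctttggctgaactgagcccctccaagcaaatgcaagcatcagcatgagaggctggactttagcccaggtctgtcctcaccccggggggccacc
Kcnip4 promoter, chr5:49285660-49285909: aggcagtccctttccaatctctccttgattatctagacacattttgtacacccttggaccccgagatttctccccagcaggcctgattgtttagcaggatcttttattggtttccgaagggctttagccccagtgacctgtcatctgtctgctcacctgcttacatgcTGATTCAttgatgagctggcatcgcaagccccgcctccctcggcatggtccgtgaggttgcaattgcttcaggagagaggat
Kcnk4 promoter, chr19:6934516-6934765: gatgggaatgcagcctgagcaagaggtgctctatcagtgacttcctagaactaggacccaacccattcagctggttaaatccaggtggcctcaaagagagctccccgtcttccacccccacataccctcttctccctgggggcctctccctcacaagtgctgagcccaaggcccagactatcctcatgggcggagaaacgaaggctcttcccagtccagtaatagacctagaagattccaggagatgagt
Kcnma1 promoter, chr14:24004206-24004455: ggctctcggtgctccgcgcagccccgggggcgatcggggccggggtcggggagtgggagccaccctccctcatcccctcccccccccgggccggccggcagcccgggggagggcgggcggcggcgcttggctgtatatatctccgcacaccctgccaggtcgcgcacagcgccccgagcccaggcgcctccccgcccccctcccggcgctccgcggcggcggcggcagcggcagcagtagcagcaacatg

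Both motifs searched, TGANTCA and the cyclic AMP response element TGACGTCA, read the same on both strands. TGANTCA was found in 1 of the 4 promoter windows of called genes, at the second Kcnip4 start, 82 bases before it (position -82). It was found in 4 of 94 windows of potassium channel genes (4.26%) and in 6.75% of 32851 windows of all genes. TGACGTCA was found in 0 of the 94 windows and in 1.55% of all windows. The Kcnma1 window was 79.2% G or C, against a median of 58.6% for members and 52.4% for all windows. These matches are descriptions of letters only.

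**Figure D2:**
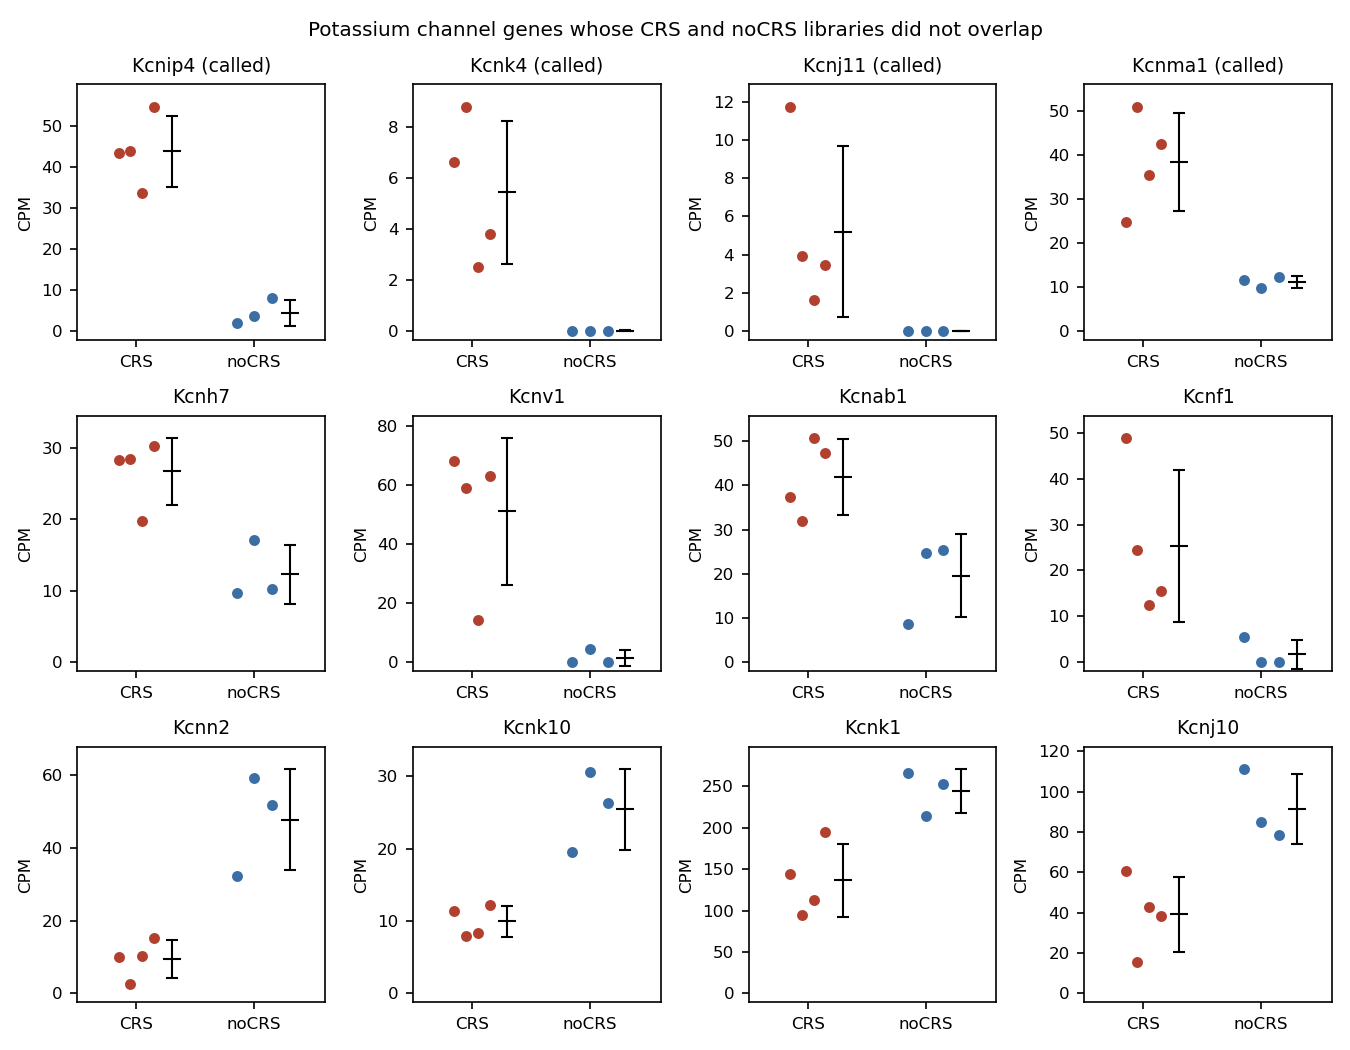
TMM-normalised CPM (vertical axis) of the 12 potassium channel genes whose 4 CRS and 3 noCRS libraries did not overlap, one point per library with mean ± SD beside them. The top row holds the 4 called genes, all higher in CRS, and the bottom row the 4 genes with lower CRS values.

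The voltage-gated Kv1-4 genes form delayed rectifier and A-type currents, and 0 of their 18 tested members (20 in all) passed the test. Their median log2 fold change was -0.04, with 9 positive and 9 negative. Their summed level was 27.0 ± 1.06 CPM per kb in CRS and 30.3 ± 7.30 CPM per kb in noCRS (SD, n = 4 and 3), so the sums differed by less than the spread between noCRS libraries. Kcnab1, a beta subunit of the Kcna channels, had 37.4, 32.0, 50.7 and 47.3 CPM in CRS libraries, against 8.73, 24.7 and 25.3 CPM in noCRS libraries. Every CRS library stood above every noCRS library, with a log2 fold change of 1.097 ± 0.421 (SE) and an adjusted p of 0.281 (edgeR). Kcnd2, the main A-type pore of dendrites, had 7.10, 16.3, 16.1 and 23.7 CPM in CRS, against 47.2, 34.4 and 23.7 CPM in noCRS. Its highest CRS library equalled its lowest noCRS library to 3 digits, and its log2 fold change was -1.15 ± 0.46 (adjusted p = 0.307, edgeR). Kcna6, an axonal delayed rectifier, was the most abundant of the group beside Kcnd2 per kilobase and shares 39.6% of its exon length with another gene, so its value is uncertain. It had 10.8, 41.5, 31.1 and 19.2 CPM in CRS and 45.5, 29.5 and 22.4 CPM in noCRS, and the groups overlapped (adjusted p = 0.879, edgeR).

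The silent subunits do not carry current alone and join Kcnb pores to change their gating. All 4 tested members (10 in all) had positive log2 fold changes, with a median of 7.15, or 5.71 with the 2 genes at 0 in noCRS set to their lower bound, and 0 passed the test. None of the 4 had counts in more than 1 noCRS library, so they passed the filter through CRS and their shared sign is no result about the group. Kcns3, untested and with counts only in CRS replicate 4 and noCRS replicate 3, had 0.0947 CPM per kb in CRS and 0.737 CPM per kb in noCRS. The summed level of the 10 silent subunits was 29.3, 18.02, 6.78 and 20.1 CPM per kb in CRS libraries, against 1.13, 1.01 and 2.39 CPM per kb in noCRS libraries. Every CRS library stood above every noCRS library, by the smallest margin in CRS replicate 3. Kcnv1 had 68.3, 59.2, 14.3 and 63.1 CPM in CRS, against 0, 4.66 and 0 CPM in noCRS. It ranked 5th of the members by level in CRS and 48th in noCRS, and its log2 fold change of 5.05 ± 1.79 had an adjusted p of 0.228 (edgeR). That value of Kcnv1 rests on noCRS replicate 2, the only noCRS library with counts, without which the gene was called. Kcnf1 had 48.8, 24.6, 12.4 and 15.6 CPM in CRS, against 5.43, 0 and 0 CPM in noCRS. Its adjusted p was 0.438 (edgeR), and it was called without noCRS replicate 1, the noCRS library with counts. Kcns2 had 11.2, 0, 5.38 and 4.20 CPM in CRS and 0 CPM in every noCRS library, at least 182-fold higher than the noCRS group floor of 0.0286 CPM (3 counts over the group), with an adjusted p of 0.171 (edgeR). It was called without CRS replicate 2, the CRS library at 0, and its CRS mean of 5.19 CPM, on which the bound rests, was 3.19 CPM without CRS replicate 1. Kcng1 had 4.11, 0, 0.495 and 4.25 CPM in CRS and 0 CPM in every noCRS library, at least 82.2-fold higher than that floor (adjusted p = 0.208, edgeR). The neuronal marker sums given above, with 2 of 6 excitatory and 2 of 6 pan-neuronal markers called higher, moved the same way. The part of these markers in the values of the silent subunits was not tested.

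The Kcnh channels, of the ether-a-go-go family, set repolarisation and resting excitability. Of 5 tested members (8 in all) 0 passed the test, with 3 positive and 2 negative log2 fold changes. Kcnh7, an erg-type pore of neurons, had 28.2, 28.4, 19.8 and 30.3 CPM in CRS, against 9.65, 17.1 and 10.2 CPM in noCRS. Its groups did not overlap, and its log2 fold change was 1.12 ± 0.39 (adjusted p = 0.220, edgeR). Kcnh8, an elk-type pore, had 9.39, 5.49, 2.01 and 7.19 CPM in CRS, against 8.83, 16.4 and 18.8 CPM in noCRS (adjusted p = 0.468, edgeR). Kcnh5, an eag-type pore, had 3.02, 26.6, 4.26 and 6.18 CPM in CRS, against 10.2, 6.97 and 9.06 CPM in noCRS. Its CRS mean was 10.02 CPM, or 4.48 CPM without CRS replicate 2, so the sign of its fold change rests on that library.

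The Kcnq channels carry slow voltage-gated currents that restrain repeated firing. Of 3 tested Kcnq members (5 in all) 0 passed the test. Kcnq3 had 25.7, 13.1, 9.74 and 20.5 CPM in CRS, against 6.995, 11.98 and 20.5 CPM in noCRS (adjusted p = 0.877, edgeR). The Kcnq levels were 2.88 ± 1.28 CPM per kb in CRS and 2.06 ± 0.89 CPM per kb in noCRS summed over members (SD, n = 4 and 3).

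The Kcnip genes encode calcium-binding proteins that bind Kcnd pores, and 1 of 4 tested passed the test. Kcnip4, at 5:48389502-49524907 on the minus strand (GRCm38), rose in CRS. It had 43.2, 43.7, 33.5 and 54.5 CPM in CRS libraries, against 1.98, 3.63 and 8.10 CPM in noCRS libraries. The lowest CRS library was more than 4 times the highest noCRS library, and the means were 43.7 ± 8.58 CPM in CRS and 4.57 ± 3.17 CPM in noCRS (SD, n = 4 and 3). The fold was 9.58 (log2 3.26 ± 0.54, adjusted p = 0.0226, edgeR). Leaving out 1 library gave adjusted p from 0.0214 to 0.112, and the call was lost without CRS replicate 1, 3 or 4 or noCRS replicate 2, while the noCRS mean was 2.80 CPM without noCRS replicate 3. By level per kilobase Kcnip4 ranked 4th of the members in CRS and 28th in noCRS. Kcnip3, a subunit that also acts as a calcium-sensitive transcriptional repressor, had 230.0, 250.5, 131 and 164 CPM in CRS, against 249.7, 254 and 331 CPM in noCRS. It was the second most abundant member in both groups, with a log2 fold change of -0.52 ± 0.25 and an adjusted p of 0.414 (edgeR). Kcnip1 had 29.3, 38.9, 34.2 and 37.4 CPM in CRS, against 36.5, 31.9 and 44.3 CPM in noCRS (adjusted p = 0.929, edgeR). Kcnip2 had 0 to 7.46 CPM in CRS and 2.05 to 9.86 CPM in noCRS (adjusted p = 0.910, edgeR). Kcnip4 shares 7.36% of its exon length with 2 other genes. Kcnip4 moved the same way as the neuronal marker sums given above, whose part in the rise was not tested.

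Among the Kcnm/n/t genes, which encode channels opened by calcium or sodium and their beta subunits, 1 of 9 tested (12 in all) passed the test. Kcnma1, the pore of the BK channel that repolarises spikes and limits transmitter release, rose at 14:23289431-24014491 on the minus strand. It had 24.8, 50.9, 35.4 and 42.6 CPM in CRS libraries, against 11.8, 9.79 and 12.4 CPM in noCRS libraries. The means were 38.4 ± 11.1 CPM in CRS and 11.3 ± 1.34 CPM in noCRS (SD, n = 4 and 3), a 3.40-fold difference (log2 1.76 ± 0.36, adjusted p = 0.0453, edgeR). Every CRS library was over 2 times the highest noCRS library, although the call was lost without any 1 library (adjusted p from 0.0509 to 0.174) and with 3 other scalings or no filter on low counts. Kcnmb4, the neuronal BK beta subunit, had 29.9, 12.8, 18.9 and 22.5 CPM in CRS, against 12.3, 21.4 and 25.4 CPM in noCRS (adjusted p = 0.967, edgeR). The sign of its log2 fold change of 0.10 turned with total-count scaling, and it shares 31.5% of its exon length with its antisense genes, so its value is uncertain. Kcnn2, the SK channel behind medium afterhyperpolarisation, had 9.90, 2.59, 10.3 and 15.1 CPM in CRS, against 32.3, 59.2 and 51.6 CPM in noCRS. Every CRS library was below every noCRS library, with means of 9.47 ± 5.16 CPM in CRS and 47.7 ± 13.9 CPM in noCRS (SD, n = 4 and 3). Its log2 fold change of -2.33 ± 0.56 had an adjusted p of 0.0783 (edgeR), and it was called lower by DESeq2, by voom and without CRS replicate 2. It ranked 31st by level in CRS and 8th in noCRS. Kcnma1 moved with the neuronal marker sums given above and Kcnn2 with the precursor marker sums given beside the Kcnj genes, and the part of those lists in either value was not tested.

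The inward rectifiers (Kcnj) set the resting potential or respond to G proteins and ATP, and 1 of 7 tested (15 in all) passed the test. Kcnj11, the pore of the ATP-sensitive channel, at 7:46093953-46100764 on the minus strand, had 11.7, 3.96, 1.62 and 3.49 CPM in CRS and 0 CPM in every noCRS library. It was at least 183-fold higher in CRS over the noCRS group floor (adjusted p = 0.0453, edgeR), and its CRS mean of 5.20 CPM was 3.02 CPM without CRS replicate 1. The call was lost without any 1 library, at adjusted p from 0.0633 to 0.134, and with total-count scaling or no filter on low counts. Its regulatory partners Abcc8 and Abcc9 had 0 CPM in 2 of 4 CRS libraries and in every noCRS library, with at most 2.48 CPM in CRS replicate 3. Both had counts in too few libraries for a test. The part of the neuronal markers, whose sums were higher in the same libraries, in the Kcnj11 value was not tested. Kcnj10, the main glial inward rectifier, had 60.8, 15.5, 42.7 and 38.3 CPM in CRS, against 111, 84.7 and 78.7 CPM in noCRS. The groups did not overlap (log2 fold change -1.22 ± 0.40, adjusted p = 0.200, edgeR). Kcnj16, which pairs with Kcnj10, had 113, 98.8, 81.6 and 158 CPM in CRS, against 229, 211 and 136 CPM in noCRS, and the groups overlapped (log2 fold change -0.76 ± 0.27, adjusted p = 0.228, edgeR). The 6 astrocyte markers, of which 0 were called, summed to 1248 to 4974 CPM in CRS, against 3128 to 4512 CPM in noCRS. The 6 oligodendrocyte precursor markers, 2 called lower, summed to 1025 to 1441 CPM in CRS, against 1802 to 2024 CPM in noCRS, without overlap. Of that list Cspg4 and C1ql1 (both called), Olig1 and Olig2 did not overlap. Pdgfra overlapped, with 498 to 975 CPM in CRS and 712 to 1173 CPM in noCRS (adjusted p = 0.823, edgeR). Vcan overlapped as well (adjusted p = 0.718, edgeR). The part of either marker list in the Kcnj10 and Kcnj16 values was not tested.

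The two-pore Kcnk channels carry background current, and 1 of 7 tested (14 in all) passed the test. Kcnk4, a mechanically gated channel at 19:6923966-6934515 on the minus strand, had 6.64, 8.80, 2.54 and 3.80 CPM in CRS libraries, against 0, 0.0321 and 0.0308 CPM in noCRS libraries. These rest on 725 counts in CRS and 2 counts in noCRS, a ratio of 285 with a 95% exact counting interval of 78.5 to 2354. That interval pools the counts of each group and covers counting error only, not the spread between libraries. The log2 fold change was 7.83 ± 1.51 (SE, edgeR). The adjusted p was 0.0375 (edgeR), for a gene that passed the count filter through CRS alone. With 1 library left out the adjusted p ran from 0.0584 to 0.146 (edgeR). The call was thus lost without any 1 library, as it was with no filter on low counts. Kcnk4 shares 13.1% of its exon length with Catsperz, so its value is uncertain, and the part of the neuronal markers in it was not tested. The most abundant member of all, Kcnk1, a weakly inward rectifying channel, had 144, 94.2, 113 and 195 CPM in CRS, against 266, 214 and 252 CPM in noCRS. The libraries did not overlap, and the log2 fold change was -0.84 ± 0.25 (adjusted p = 0.161, edgeR). Kcnk10, a stretch- and lipid-sensitive channel, had 11.4, 7.89, 8.29 and 12.2 CPM in CRS, against 19.5, 30.5 and 26.2 CPM in noCRS, also without overlap (log2 fold change -1.35 ± 0.40, adjusted p = 0.156, edgeR). Both Kcnk1 and Kcnk10 were called lower by DESeq2. The oligodendrocyte precursor markers given for the Kcnj genes, 2 of 6 called lower, were lower in the same libraries, and their part in these values was not tested. Kcnk13, a channel also known from microglia, had 36.0, 25.4, 30.8 and 20.5 CPM in CRS, against 9.14, 38.3 and 26.2 CPM in noCRS (adjusted p = 0.929, edgeR). The 6 microglia markers summed to 84.3 to 121 CPM in CRS and 87.2 to 131 CPM in noCRS, with Tmem119 at 0 in every noCRS library. Kcnk9 had 0, 15.8, 2.01 and 0.938 CPM in CRS and 0 CPM in every noCRS library, at least 158-fold higher than the noCRS group floor. Its CRS mean of 4.68 CPM was 0.984 CPM without CRS replicate 2, and its adjusted p was 0.208 (edgeR).

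Of the Kcne subunits, which attach to several pores, 2 of 5 were tested and 0 passed. Kcne4 had 47.4, 0, 25.9 and 37.7 CPM in CRS, against 10.3, 13.9 and 11.95 CPM in noCRS, so the CRS libraries lay on both sides of the noCRS libraries (adjusted p = 0.846, edgeR). Kcne1l had 3.99, 0, 9.97 and 2.84 CPM in CRS, against 7.28, 0.546 and 4.31 CPM in noCRS (adjusted p = 0.997, edgeR), and the sign of its log2 fold change turned under other scalings. Kcnrg, a regulator of channel assembly, had 0, 0.250, 1.82 and 1.75 CPM in CRS and 0 CPM in every noCRS library. It had enough counts in too few libraries to be tested. Of the 35 untested members, 22 had counts, 12 of them in CRS only and 2, Kcnj14 and Kcnk5, in noCRS only. Of these 22, 10 had counts in 1 library only, which for 5 was CRS replicate 4, the library with the most genes detected (23399).

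**Figure D3:**
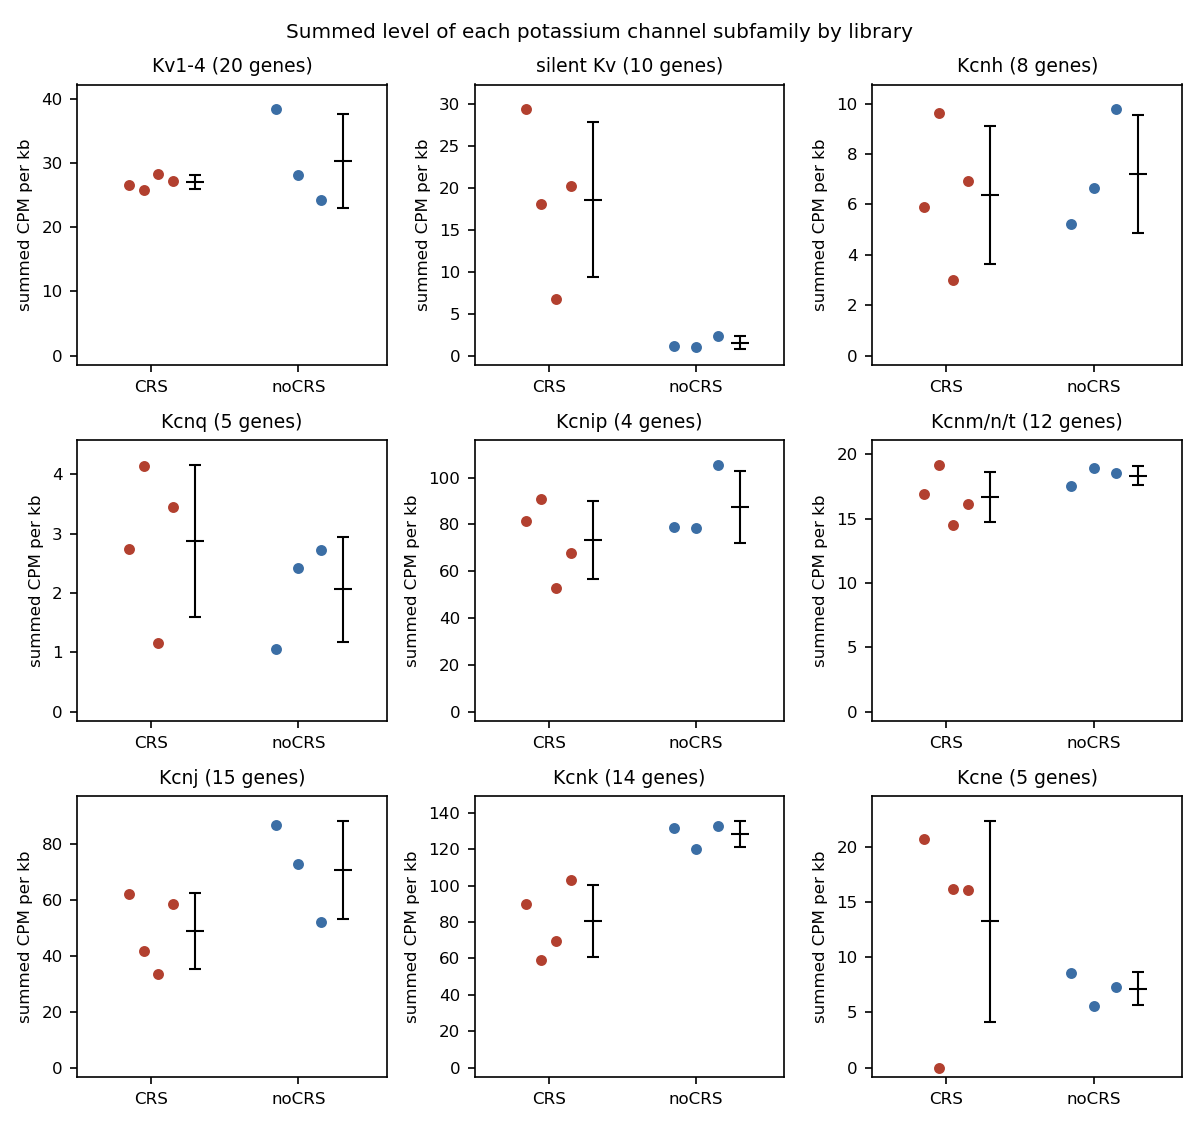
Summed level in CPM per kb (vertical axis) of each subfamily, one point per library with mean ± SD beside them. The silent subunits lie between 6.78 and 29.3 CPM per kb in CRS, all above noCRS. The Kcnk sums lie between 59.3 and 103 CPM per kb in CRS, all below noCRS, and are mostly Kcnk1 (means of 61.1 in CRS and 109 in noCRS).

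By level per kilobase, Kcnk1, Kcnip3 and Kcnj16 led in both groups. They held 50.2% of the summed level of all members in CRS and 67.0% in noCRS. Of the 10 most abundant members 5 had negative and 5 positive log2 fold changes, and 1, Kcnip4, was called. The Kcnk genes together had 80.4 ± 19.7 CPM per kb in CRS and 128 ± 7.15 CPM per kb in noCRS (SD, n = 4 and 3). Kcnk1 alone had means of 61.1 CPM per kb in CRS and 109 CPM per kb in noCRS, so the lower sum was mostly that of Kcnk1. Of the 7 tested Kcnk genes, 4 had positive and 3 negative log2 fold changes. All members together had 288 ± 49.7 CPM per kb in CRS and 353 ± 17.8 CPM per kb in noCRS (SD, n = 4 and 3). These totals overlapped, with 335.5 CPM per kb in CRS replicate 1 and 334.2 CPM per kb in noCRS replicate 2. The part of the oligodendrocyte precursor markers, whose sums of 1025 to 1441 CPM in CRS also lay below those of 1802 to 2024 CPM in noCRS, in the Kcnk sums was not tested. The Kcnj sums of 48.9 ± 13.6 CPM per kb in CRS and 70.7 ± 17.6 CPM per kb in noCRS overlapped.

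A list of 22 genes that bind, anchor or regulate these channels was examined, of which 18 were tested. Of these, 1 was called higher and 0 lower, where 2.07% and 0.230% of all tested genes were. The list had 10 positive and 8 negative log2 fold changes and a median of 0.25, beside -0.02 over all tested genes. Dpp10, a peptidase-like auxiliary subunit of Kcnd channels at 1:123321471-124846039 on the minus strand, rose in CRS. It had 116, 158, 123 and 127 CPM in CRS libraries, against 26.6, 33.2 and 22.6 CPM in noCRS libraries. The lowest CRS library was more than 3 times the highest noCRS library, and the fold was 4.77 (log2 2.25 ± 0.22, adjusted p = 0.00355, edgeR). The call held with each library left out, at adjusted p from 0.00678 to 0.0200 (edgeR), while the part of the neuronal markers in the rise was not tested. Its relative Dpp6 had 166, 136, 163 and 92.5 CPM in CRS, against 180, 148 and 131 CPM in noCRS (adjusted p = 0.902, edgeR). Lgi1, a secreted protein that binds Kcna complexes through Adam22 and Adam23, had 92.7, 65.6, 72.4 and 84.998 CPM in CRS, against 26.3, 52.8 and 18.6 CPM in noCRS. Its libraries did not overlap (log2 fold change 1.28 ± 0.36, adjusted p = 0.142, edgeR), and it was called by DESeq2. Rest, a repressor of neuronal genes in other cells, had 22.1, 24.5, 30.1 and 29.5 CPM in CRS, against 37.7, 27.6 and 23.6 CPM in noCRS (adjusted p = 0.911, edgeR).

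**Figure D4:**
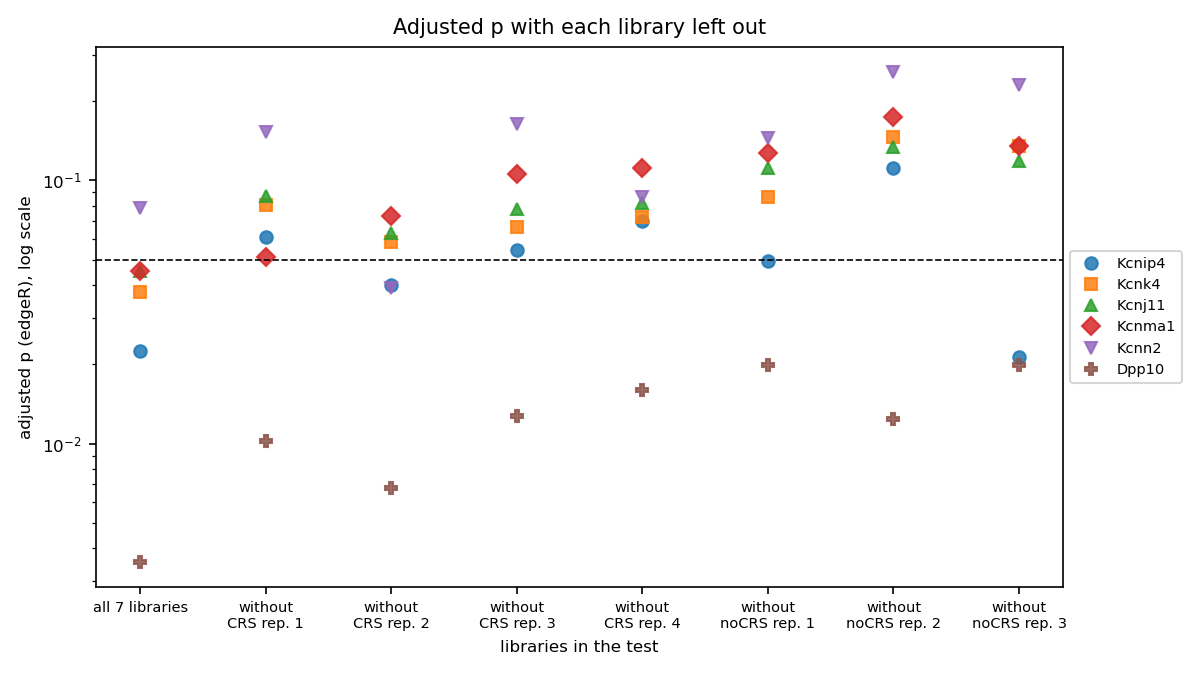
Adjusted p of edgeR's test (vertical axis, log scale) for the 4 called genes, Kcnn2 and Dpp10, with all libraries and with each library left out. The dashed line is at 0.05, Dpp10 lies below it throughout, and Kcnk4, Kcnj11 and Kcnma1 lie above it once any 1 library is left out.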

How the data were processed

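The authors deposited raw counts per gene as whole numbers, per the file headers in the layout of featureCounts, for 7 libraries. Per the submitters' processing notes, the build was GRCm38 and the named tools were featureCounts, HISAT, HISAT2, FastQC and DESeq2, with no versions given. The column names end as another aligner's defaults do, so the aligner is not settled. Per the labels' protocols, RNA came from a micro kit and libraries from TruePrep DNA Library Prep Kit V2. Strand is not stated for the counting, so overlapping genes on opposite strands cannot be told apart. Of the 59 tested members, 18 overlap exons of other genes, 5 of them over more than 10% of their length.

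Here edgeR 4.0.16 in R 4.3.3 (TMM, default expression filter, quasi-likelihood test, no covariate) tested CRS over noCRS across 17833 genes, with Benjamini-Hochberg adjustment and a threshold of 0.05. Fold bounds for genes at 0 in noCRS use 3 counts over the group. Alternatives were DESeq2 1.42.0, limma 3.58.1 voom with quality weights, 3 scalings, 2 filters, a threshold of 0.1, each library left out and the replicate number as a block. Setting genes at 0 to their bound was chosen after seeing the data. The script was tested on simulated data. No library repeated another, as their chi-square was never below 99.9 per gene.

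The members and lists were chosen with earlier results of these data known. Named genes were every called member, and in each subfamily the 2 of smallest unadjusted p and the 2 most abundant per kilobase, plus called partners and the 2 of smallest p. Counts and sums include 1 gene whose own values are not reported here. Other genes named were chosen after their values were seen.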

Additional observations from a re-analysis of the deposited data

Results flagged for a closer look

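The 4 CRS libraries were examined for each of 29 named genes, and 1 library stood far from the others for 2 of them. Such gaps arise in about 1 of 20 groups by chance. Kcnh5 had 26.6 CPM in CRS replicate 2, while the next CRS library had 6.18 CPM. Kcnv1 had 14.3 CPM in CRS replicate 3, while the nearest CRS library had 59.2 CPM. No other named gene had such a gap in CRS, and the noCRS group of 3 libraries was too small to examine.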

How the results depend on the processing

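The count of called potassium channel genes, 4, became 2 with total counts alone, 1 with no filter on low counts and 11 with DESeq2, and ran from 0 to 3 with 1 library left out. It was 0 without CRS replicate 1, 3 or 4. Without CRS replicate 2 it was 3 (Kcnip4, Kcnn2 and Kcns2), without noCRS replicate 1 it was 2 (Kcnf1 and Kcnip4), and without noCRS replicate 2 or 3 it was 1. The partner count of 1 became 2 with DESeq2 and stayed at 1 with each library left out. Over all genes the count of 410 became 1631 with DESeq2, 639 with voom and 714 at a threshold of 0.1, and ran from 142 to 352 with 1 library left out.

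The median log2 fold change of members was 0.10 with voom and 0.075 to 0.54 with 1 library left out. For Kv1-4 it was 0.45 with at least 1 CPM in 3 libraries, -0.39 with voom and -0.19 to 0.26 with 1 library left out. The silent subunits gave 5.02 with that filter, 5.71 at the bound and 4.08 to 9.88 with 1 library left out. Kcnh gave -0.58 with voom and -0.98 to 0.50 with 1 library left out, and Kcnm/n/t gave 0.13 with voom and 0.13 to 1.15. With 1 library left out, Kcnj ran from 0.16 to 1.36, Kcnq from 0.10 to 0.87, Kcnk from -0.18 to 0.67, Kcne from 0.18 to 1.02 and Kcnip from -0.43 to -0.15. Of 413 values of named genes under alternatives, 400 kept their direction. Those that turned were Kcne1l (-0.00094 with RLE factors, -0.087 with total counts, -0.0047 with DESeq2, -0.85 to 0.80 with 1 library left out), Kcnmb4 (-0.056 with total counts, -0.14 to 0.32 with 1 library left out), Kcnh5 (-0.58 with voom, -0.98 to 0.50) and Kcnk13 (-0.18 to 0.67). The cause was not tested.

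The replicate numbers shared by the groups were not shown to pair libraries, since same-numbered libraries' deviations correlated at 0.015, -0.006 and 0.023, and CRS replicate 2 correlated best with noCRS replicate 3. With the replicate block, 0 potassium channel genes, 0 partner genes and 12 genes in all were called. The block gave a median of 0.02 for members and for Kcnm/n/t, -0.28 for Kv1-4, and medians of turned sign for Kcne (-0.62) and Kcnh (-0.40). It gave -1.29 for Kcne1l and -0.40 for Kcnh5.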

Other observations

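Kcnq1ot1, an imprinted noncoding RNA, had 20.1, 40.0, 34.7 and 32.5 CPM in CRS, against 32.6, 32.8 and 30.7 CPM in noCRS. Kcnmb4os1 had 20.5, 9.86, 11.6 and 14.9 CPM in CRS, against 6.68, 11.98 and 13.96 CPM in noCRS, and it shares 43.1% of its exon length with another gene.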
